A study of Homo sapiens with 12 samples.

Results

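The IFIT genes (interferon-induced proteins with tetratricopeptide repeats) were examined in 12Z cells carrying or lacking a PIK3CA H1047R plasmid, with and without insulin. The members were the rows whose gene identifiers carried the symbols IFIT1, IFIT2, IFIT3 and IFIT5, which gave 4 of the 60617 gene identifiers listed. All 4 passed the filter on low counts.

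Bulk RNA-seq had been performed on 12Z, an immortalized epithelial cell line from human endometriosis, a disease of endometrium-like tissue at sites other than the uterus. The 4 groups were H1047R insulin, H1047R vehicle, control insulin and control vehicle, with 3 libraries each, described as independent experiments on this 1 cell line. Every culture was first transfected with non-targeting siRNA. H1047R cells then received, transiently, a pBabe plasmid with PIK3CA H1047R, an activating mutant of the catalytic subunit of phosphoinositide 3-kinase, and control cells received empty pBabe. After 4 h without serum, 100 nM insulin or vehicle was added for 24 h before RNA was taken. A transient plasmid need not reach every cell, and in bulk RNA a change in the number of cells expressing a gene and a change in RNA per cell cannot be told apart.

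IFIT genes are among the classical interferon-stimulated genes, which cells switch on when they sense viral RNA or DNA or receive type I or type III interferon. Interferon receptors act through the kinases JAK1 and TYK2 on a transcription factor complex that contains STAT2 and IRF9 and binds the interferon-stimulated response element, and IRF1, IRF3 and IRF7 can act on the same element. IFIT1 binds RNA whose cap lacks ribose methylation and blocks its translation, IFIT3 and IFIT2 form complexes with IFIT1, and IFIT5 binds uncapped RNA that ends in a triphosphate.

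The 4 genes lie in a row on the plus strand of chromosome 10 (hg38). Their identifiers are given as deposited, while spans, exons and lengths come from GENCODE release 44, whose gene versions differ from the deposited ones for IFIT2, IFIT3 and IFIT5. The release behind the deposited counts was not given in the sources used here, so the exons counted may differ from those described. IFIT2 (ENSG00000119922.10) spans 89283694 to 89309271, IFIT3 (ENSG00000119917.14) 89327307 to 89377473, IFIT1 (ENSG00000185745.10) 89392546 to 89406487, and IFIT5 (ENSG00000152778.9) 89414568 to 89421605. The canonical transcript of each has 2 exons. Between IFIT3 and IFIT1 lies IFIT1B, a further family gene that was not a member. In release 44, 12.1% of the exon bases of IFIT2 are shared with a long non-coding RNA on the same strand, where reads are ambiguous and not counted. Reads on the opposite strand made up 0.181 to 2.10% of the stranded reads of the 4 genes.

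The upstream sequences are shown because the interferon-stimulated response element is the known DNA element of these promoters. Each is the 160 bases before a RefSeq transcription start (GRCh38.p14, plus strand, 5′ to 3′), and capitals mark the core of that element, TTTC, then NN (any bases), then TTTC. RefSeq promoters were matched for IFIT1, IFIT3, which has 2 starts, and IFIT5, but not for IFIT2.
IFIT1, chr10:89392463-89392622: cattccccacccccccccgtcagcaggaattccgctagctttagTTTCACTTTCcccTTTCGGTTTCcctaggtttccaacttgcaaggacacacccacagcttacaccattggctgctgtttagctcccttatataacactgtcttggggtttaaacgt
IFIT3 first start, chr10:89327837-89327996: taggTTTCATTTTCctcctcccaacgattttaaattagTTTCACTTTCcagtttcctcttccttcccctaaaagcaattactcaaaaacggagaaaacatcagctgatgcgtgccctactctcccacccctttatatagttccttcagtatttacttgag
IFIT3 second start, chr10:89332369-89332528: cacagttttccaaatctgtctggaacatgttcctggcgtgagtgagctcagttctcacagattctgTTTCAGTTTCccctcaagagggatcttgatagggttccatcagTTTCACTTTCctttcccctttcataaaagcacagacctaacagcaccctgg
IFIT5, chr10:89414408-89414567: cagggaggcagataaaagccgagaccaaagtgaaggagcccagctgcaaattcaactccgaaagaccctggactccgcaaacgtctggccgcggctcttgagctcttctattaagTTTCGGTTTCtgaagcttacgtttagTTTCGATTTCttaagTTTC
The search covered both strands from 250 bases before to 50 bases after the start. IFIT1 held 2 matches, at -116 to -107 and -103 to -94 from the start. IFIT3 held 2 at its first start (-156 to -147 and -122 to -113) and 2 at its second (-94 to -85 and -51 to -42). IFIT5 held 3, of which the last runs past the start (-45 to -36, -19 to -10 and -4 to 6). All were on the plus strand, and the IFIT1B window held 0. Of 35116 RefSeq promoters of this length, 1255 (3.57%) held at least 1 match, 91 (0.259%) at least 2 and 13 (0.0370%) at least 3, and of 39 promoters matched to the list of other interferon-stimulated genes described below, 22 (56.4%) held at least 1. A match describes the letters only and is neither a measured site nor a cause of any change.

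The level of the transfected gene was checked first. In CPM (gene counts relative to the TMM-scaled size of each library), PIK3CA was at 734, 714 and 715 in H1047R insulin, 312, 180.1 and 215 in H1047R vehicle, 81.0, 85.9 and 80.9 in control insulin, and 89.0, 88.2 and 88.6 in control vehicle. Every H1047R library lay above every control library. H1047R insulin also lay above H1047R vehicle, by 1.62 ± 0.0839 on the log2 scale (edgeR adjusted p = 5.33e-19). Comparisons of H1047R insulin with H1047R vehicle are therefore also comparisons of unequal PIK3CA levels, and the part of PIK3CA level in the results below was not tested.

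H1047R insulin libraries also differed in other respects. They held 30071951 to 37918025 gene counts, against 21483124 to 29255708 in the other 9 libraries, and 8.48 to 9.51% of their reads were placed at several sites, against 13.6 to 15.4%. Summed stromal markers were at 5482 to 5697 CPM in H1047R insulin and 7242 to 7651 CPM in the other groups, with 5 of 6 lower and VIM higher in H1047R insulin than in H1047R vehicle. Summed epithelial markers were at 3270 to 3288 CPM in H1047R insulin and 2907 to 3246 CPM in the other groups. Of the 6, 1 was called higher and 1 lower in H1047R insulin than in H1047R vehicle. The sums came from keratins, while the defining epithelial markers EPCAM and CDH1 were near 0, at 0.379 to 2.38 CPM. The 7 immune markers, as a check for interferon-producing or infiltrating cells, summed to 3.97 to 6.64 CPM, and 2 of them, CD3E and LILRA4, had 0 counts in all 12 libraries. The 3 endothelial markers summed to 4.92 to 5.23 CPM in H1047R insulin and to 2.62 to 4.59 CPM in the other groups. Of these, 1, VWF, was called higher in H1047R insulin than in H1047R vehicle (log2 fold change 0.92 ± 0.161), and 2 were not called. At an unadjusted p under 0.05 by edgeR, 2 of the 3 were higher and 1 lower. The lower marker, CDH5, had 0.588, 0.715 and 0.622 CPM in H1047R insulin against 1.85, 1.05 and 1.04 CPM in H1047R vehicle. The part of depth, of multiply placed reads and of these marker lists in the results was not tested.

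IFIT2, which acts with IFIT3 and IFIT1, had 290.0, 288.8 and 287.5 CPM in H1047R insulin, 92.7, 46.8 and 52.8 in H1047R vehicle, 31.4, 29.2 and 30.1 in control insulin, and 33.5, 36.9 and 35.4 in control vehicle. The H1047R insulin libraries were nearly equal and stood far above all others. H1047R vehicle lay between them and the control groups, and its replicate 1 stood above its other libraries.

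IFIT3, which stabilizes IFIT1 and joins its complexes, had 511, 471 and 515 CPM in H1047R insulin, 134, 60.8 and 72.0 in H1047R vehicle, 42.9, 39.6 and 44.3 in control insulin, and 48.0, 55.2 and 45.8 in control vehicle. For IFIT2 and IFIT3 the groups fell in the same order, H1047R insulin, H1047R vehicle, control vehicle, control insulin. Libraries of neighbouring groups in that order did not overlap. Over all genes tested, the share with such an arrangement was 22.7% for H1047R insulin above H1047R vehicle. It was 7.55% for H1047R vehicle above control vehicle and 9.92% for control insulin below control vehicle.

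IFIT1, the cap sensor, had 352, 273 and 292 CPM in H1047R insulin, 144, 80.5 and 90.5 in H1047R vehicle, 81.7, 81.0 and 84.4 in control insulin, and 76.7, 84.4 and 64.2 in control vehicle. The H1047R insulin libraries stood apart, while the other 3 groups overlapped.

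IFIT5, the sensor of triphosphate ends, had 79.3, 73.9 and 76.4 CPM in H1047R insulin, 50.6, 41.2 and 42.5 in H1047R vehicle, 44.1, 45.2 and 45.0 in control insulin, and 44.5, 45.8 and 40.4 in control vehicle. H1047R insulin again stood apart, and the other 3 groups overlapped, although H1047R vehicle replicate 1 lay above all 6 control libraries.

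**Figure D1:**
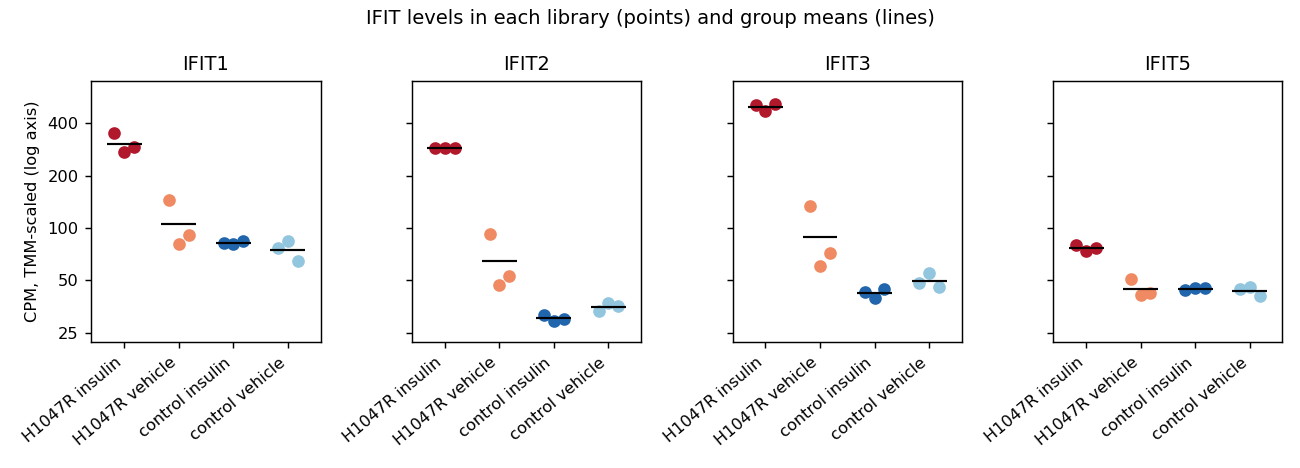
Levels of IFIT1, IFIT2, IFIT3 and IFIT5 in CPM on a log axis, with 1 point per library (replicates 1 to 3 from left to right) and a line at the mean of each group. All 4 genes are highest in the 3 H1047R insulin libraries, and H1047R vehicle replicate 1 is above replicates 2 and 3 for each gene.

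To determine how insulin acted on cells with the PIK3CA mutation, H1047R insulin was compared with H1047R vehicle. All 4 members rose, and their libraries did not overlap between the groups, as was also the case, with H1047R insulin higher, for 22.7% of all genes tested. IFIT3 averaged 499 ± 24.4 CPM in H1047R insulin and 88.8 ± 39.3 CPM in H1047R vehicle (SD, n = 3 each), a log2 fold change of 2.49 ± 0.121 (SE, adjusted p = 6.16e-20). IFIT2 averaged 288.8 ± 1.24 CPM in H1047R insulin and 64.1 ± 24.9 CPM in H1047R vehicle, a log2 fold change of 2.17 ± 0.104 (adjusted p = 4.07e-20). IFIT1 averaged 306 ± 41.3 and 105.0 ± 34.0 CPM in these groups, a log2 fold change of 1.54 ± 0.103 (adjusted p = 1.14e-15). The smallest of the 4 changes was that of IFIT5, with 76.5 ± 2.67 CPM in H1047R insulin and 44.8 ± 5.07 CPM in H1047R vehicle (log2 fold change 0.77 ± 0.0566, adjusted p = 1.53e-14). In this comparison 9.85% of the 22756 genes tested were called higher and 9.8% lower at a false discovery rate (FDR) below 0.001, and the median log2 fold change of all genes was near 0 in every comparison. Because replicate 1 was the highest library of H1047R vehicle, leaving it out gave larger log2 fold changes, of 2.94 for IFIT3, 2.56 for IFIT2, 1.86 for IFIT1 and 0.90 for IFIT5.

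In control cells no IFIT gene passed the test for insulin. Control insulin and control vehicle averaged 30.2 ± 1.09 and 35.3 ± 1.71 CPM for IFIT2 (log2 fold change -0.22 ± 0.123, adjusted p = 0.382) and 42.3 ± 2.45 and 49.6 ± 4.95 CPM for IFIT3 (-0.24 ± 0.136, adjusted p = 0.410). For both genes the 3 control insulin libraries lay below the 3 control vehicle libraries without overlap, an arrangement shared by 9.92% of all genes tested. IFIT1 had a log2 fold change of 0.13 ± 0.109 (adjusted p = 0.645) and IFIT5 of 0.04 ± 0.0595 (adjusted p = 0.849), with overlapping groups. By edgeR 0 of the 4 members were called, 0 were at an unadjusted p under 0.05 and DESeq2 called 0, against 1.63% of all genes called in either direction. With no filter on low counts IFIT3 passed as lower in control insulin (adjusted p = 0.000238), which was the 1 alternative of 21 that gave a call here.

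The difference between the insulin effects in H1047R and control cells was tested directly as the interaction, and all 4 members passed. Insulin changed IFIT3 by 2.73 ± 0.181 more on the log2 scale in H1047R cells than in control cells (adjusted p = 3.90e-15). The same difference was 2.40 ± 0.161 for IFIT2 (adjusted p = 5.02e-15), 1.42 ± 0.150 for IFIT1 (adjusted p = 1.12e-09) and 0.74 ± 0.0822 for IFIT5 (adjusted p = 3.69e-09). Over all genes tested, 4.58% were called with a positive interaction. PIK3CA itself had an interaction of 1.72 ± 0.123.

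**Figure D2:**
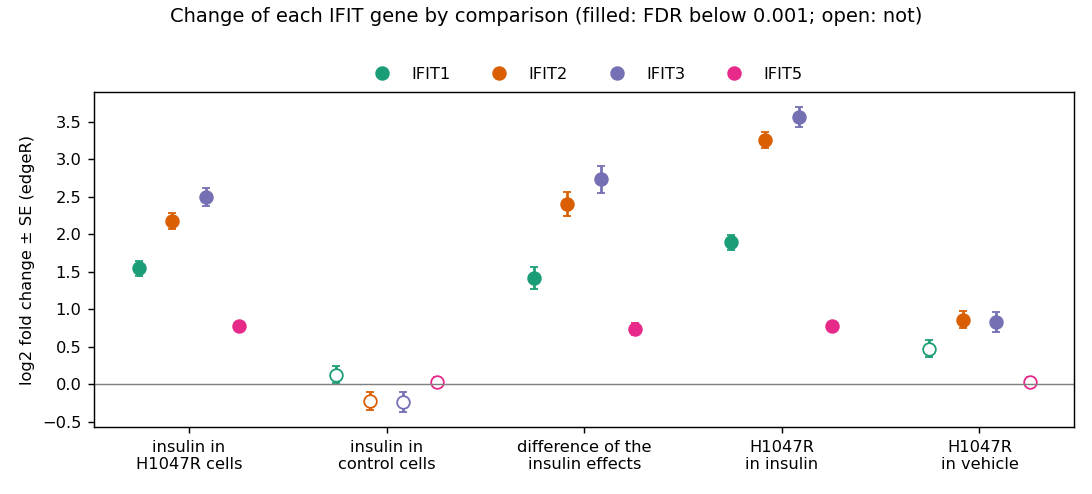
Log2 fold change ± SE of each IFIT gene in the 5 comparisons, filled where the edgeR FDR was below 0.001. IFIT3 and IFIT2 lie above IFIT1, and IFIT1 above IFIT5, in each of the 3 comparisons in which all 4 points are filled, and 0 points are filled for insulin in control cells.

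H1047R cells were next compared with control cells within each treatment. In insulin, all 4 members were higher in H1047R cells, where 11.4% of all genes tested were called higher. The log2 fold change of H1047R insulin over control insulin was 3.56 ± 0.129 for IFIT3 (11.8-fold, adjusted p = 2.57e-24) and 3.26 ± 0.112 for IFIT2 (9.56-fold, adjusted p = 4.16e-25). It was 1.89 ± 0.104 for IFIT1 (3.71-fold, adjusted p = 1.79e-18) and 0.77 ± 0.0560 for IFIT5 (1.71-fold, adjusted p = 7.57e-15). The libraries of the groups did not overlap for any member, as for 23.3% of all genes tested with H1047R insulin higher, and PIK3CA differed by 3.12 ± 0.0905 in the same comparison.

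In vehicle, 2 of the 4 members were higher in H1047R cells, in a comparison where 0.141% of all genes tested were called higher. IFIT2 averaged 64.1 ± 24.9 CPM in H1047R vehicle and 35.3 ± 1.71 CPM in control vehicle (log2 fold change 0.86 ± 0.116, adjusted p = 1.51e-05). IFIT3 averaged 88.8 ± 39.3 CPM in H1047R vehicle and 49.6 ± 4.95 CPM in control vehicle (0.83 ± 0.130, adjusted p = 0.000186). IFIT1 did not pass, with a log2 fold change of 0.48 ± 0.109 (adjusted p = 0.0161), nor did IFIT5, with 0.03 ± 0.0602 (adjusted p = 0.887). Without H1047R vehicle replicate 1, which also had the most PIK3CA of its group, the log2 fold changes were 0.49 for IFIT2, 0.41 for IFIT3, 0.18 for IFIT1 and -0.07 for IFIT5, and IFIT2 and IFIT3 remained called. The call of IFIT2 was lost with DESeq2 (adjusted p = 0.0274) and after a minimum of 1 CPM in 3 libraries was set (adjusted p = 0.00234), and that of IFIT3 with both (adjusted p = 0.0867 and 0.00840) and without control vehicle replicate 1, 2 or 3 (adjusted p = 0.00358, 0.00108 and 0.00397), whereas IFIT1 gained a call with no filter on low counts (adjusted p = 5.86e-21) and without H1047R vehicle replicate 2 or 3 (adjusted p = 6.43e-05 and 0.000715).

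Because the log2 fold changes of the members were unequal, their proportions were compared within libraries, where scaling cancels. Per kilobase of canonical transcript, IFIT3 had the highest mean level in H1047R insulin (209 ± 10.2 CPM per kb), followed by IFIT2 (85.1 ± 0.367), IFIT1 (71.1 ± 9.60) and IFIT5 (19.0 ± 0.663). In control vehicle the levels were closer together, at 20.8 ± 2.07 CPM per kb for IFIT3, 17.5 ± 2.37 for IFIT1, 10.8 ± 0.706 for IFIT5 and 10.4 ± 0.505 for IFIT2. Libraries of IFIT3 and IFIT1 overlapped there, and so did those of IFIT5 and IFIT2. Reads were counted over all exons of a gene, while the length used is that of the canonical transcript. For IFIT3 that is 2390 bases against 5067 annotated exon bases, and for IFIT1 4302 against 4614. The order of the members by level per kb and the size of their shares therefore depend on the length chosen. As a share of the summed level of the 4 genes, IFIT3 took 53.4, 54.2 and 55.7% in H1047R insulin and 34.1, 35.6 and 35.1% in control vehicle. IFIT5 took 4.91, 5.04 and 4.90% in H1047R insulin, 9.71, 15.0 and 13.7% in H1047R vehicle, 19.1, 20.3 and 19.2% in control insulin and 18.8, 17.5 and 18.4% in control vehicle. H1047R insulin thus had the largest share of IFIT3 and the smallest of IFIT5 in each of its libraries.

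**Figure D3:**
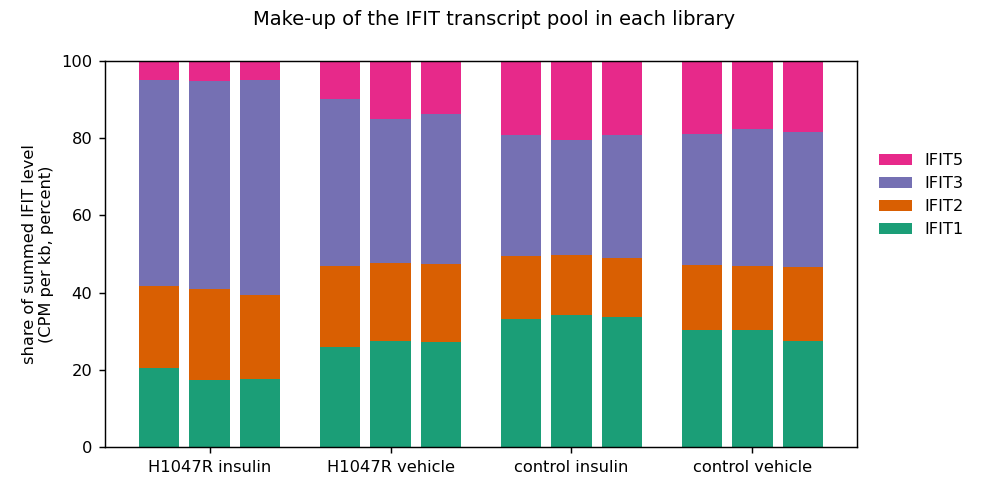
Share of each IFIT gene in the summed level of the 4 genes (CPM per kb of canonical transcript, percent), with 1 bar per library in replicate order. IFIT3 makes up 53.4 to 55.7% of the H1047R insulin bars and IFIT5 4.90 to 5.04%, while the IFIT5 part of the control insulin and control vehicle bars is 17.5 to 20.3%.

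The same pattern, in the same libraries, can be given as the ratio of IFIT5 to the geometric mean of the other 3 members, which describes it further and adds no independent evidence. On the log2 scale the ratio was -2.24, -2.17 and -2.20 in H1047R insulin, -1.26, -0.57 and -0.72 in H1047R vehicle, -0.12, -0.01 and -0.10 in control insulin, and -0.16, -0.28 and -0.22 in control vehicle. The 3 libraries of H1047R insulin lay below those of H1047R vehicle (difference of means -1.35) and below those of control insulin (-2.13). H1047R vehicle lay below control vehicle (-0.63), whereas control insulin lay above control vehicle (0.14). The groups did not overlap in any of these 4 comparisons.

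Other genes of the interferon pathway were described by 4 lists. In H1047R insulin against H1047R vehicle, the list of other interferon-stimulated genes had 30 of 30 members higher, with a median log2 fold change of 2.001. Of all genes tested, 9.85% were called higher in this comparison. The log2 fold change was 3.98 ± 0.183 for RSAD2, the antiviral enzyme viperin, 3.27 ± 0.183 for CMPK2, a nucleotide kinase, 3.17 ± 0.218 for IFI44L and 3.02 ± 0.159 for OASL, which enhances RIG-I signaling. RSAD2 had 99.0, 86.2 and 98.1 CPM in H1047R insulin and 12.5, 2.22 and 3.40 CPM in H1047R vehicle. The IFIT3 and IFIT2 changes lay above the median of this list, and those of IFIT1 and IFIT5 below it.

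The sensors, adaptors and interferon regulatory factors had 11 of 18 members higher and 0 lower in H1047R insulin than in H1047R vehicle, with a median log2 fold change of 0.50. Among all genes tested, 9.85% were called higher and 9.8% lower. RIGI, the cytoplasmic sensor of triphosphate RNA, had a log2 fold change of 2.40 ± 0.115, with 193, 170.1 and 183 CPM in H1047R insulin against 51.0, 23.3 and 29.4 CPM in H1047R vehicle. IFIH1, the sensor MDA5, changed by 1.88 ± 0.118, IRF7, the regulator of interferon alpha genes, by 1.77 ± 0.123, and DHX58, a regulator of both sensors, by 1.34 ± 0.0992. Their adaptor MAVS (-0.04) and the downstream kinase TBK1 (0.15) did not pass.

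Of the interferon ligands, receptors and signaling genes, 15 of 20 passed the filter on low counts. Of these, 4 were higher and 2 lower in H1047R insulin than in H1047R vehicle (median log2 fold change 0.26). These counts are too small to be set apart from the 9.85% higher and 9.8% lower among all genes tested. USP18, which restrains the type I receptor, changed by 1.85 ± 0.118 and STAT2, part of the complex that binds the response element, by 0.41 ± 0.0538. The members called lower were IFNAR1, a subunit of the type I receptor (-0.17 ± 0.0403), and JAK1 (-0.17 ± 0.0385). The count of lower members was 0 with RLE size factors, with library totals only and with no filter on low counts. It was also 0 without H1047R vehicle replicate 2 or 3 or H1047R insulin replicate 1 or 3. The count of lower members was 1 with unstranded counts, with only the 2 groups compared, and without control insulin replicate 2 or H1047R insulin replicate 2. Among the higher members was the type III interferon IFNL1, named here after its values were seen because it lay under 1 CPM, with 37, 31 and 33 reads in H1047R insulin and 6, 1 and 4 in H1047R vehicle (log2 fold change 2.65 ± 0.466, adjusted p = 1.59e-05). IFNB1, a type I interferon that most cell types can make, had 6, 3 and 7 reads in H1047R insulin and 0, 1 and 0 in H1047R vehicle, and did not pass (adjusted p = 0.0338). Neither ligand had a read in any of the 6 control libraries, and IFNA1 and IFNK had 0 reads in all 12. IFNE, also on this list, had 39 reads in all in H1047R insulin, 20 in H1047R vehicle, 34 in control insulin and 25 in control vehicle. In H1047R insulin against H1047R vehicle IFNE did not pass (edgeR adjusted p = 0.571). IFNL2 and IFNL3 had 2 and 4 reads in all in H1047R insulin and 0 in the other groups. IRF9 was listed at 0 in all 12 libraries and its level was not read.

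The list of proteins reported to work with IFIT proteins or to methylate the RNA cap had 2 of 10 members higher and 1 lower in H1047R insulin than in H1047R vehicle, counts so small that they cannot be set apart from the 9.85% higher and 9.8% lower among all genes. CMTR1, which adds the ribose methyl group that keeps IFIT1 from binding a cap, changed by 0.18 ± 0.0439 (adjusted p = 0.000862), and HSP90AB1, a chaperone, by 0.29 ± 0.0348. EIF3E, the translation initiation subunit bound by IFIT proteins, changed by -0.48 ± 0.0387, with 282, 299 and 280 CPM in H1047R insulin against 393, 418 and 392 CPM in H1047R vehicle. The count of higher members was 4 with library totals only or with no filter on low counts. It was 1 with a filter of 1 CPM in 3 libraries, with only the 2 groups compared, and without control vehicle replicate 2, control insulin replicate 2, H1047R vehicle replicate 2 or 3, or H1047R insulin replicate 1 or 3. The cap methyltransferases RNMT (0.17) and CMTR2 (0.13) did not pass.

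**Figure D4:**
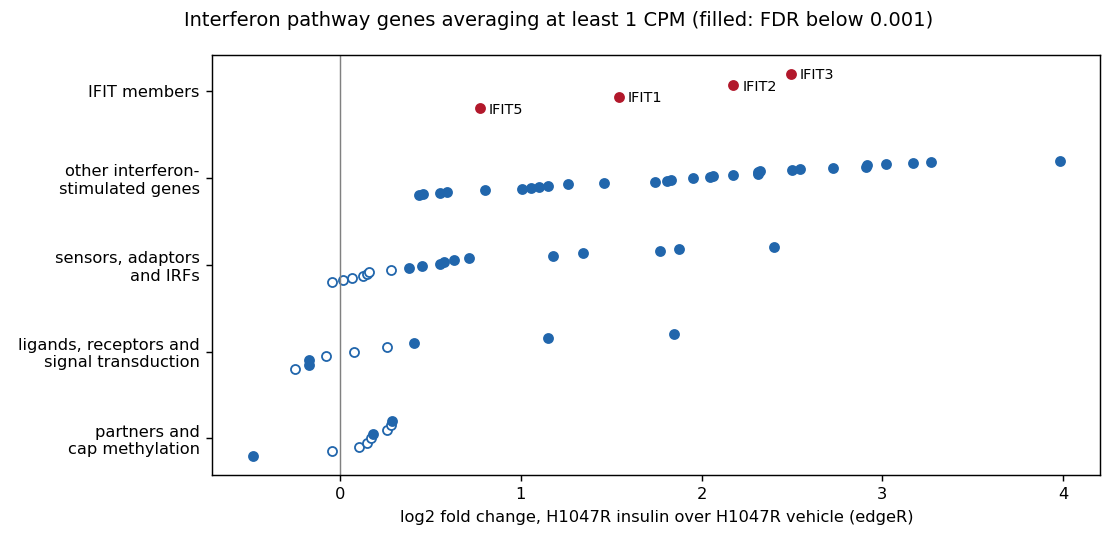
Log2 fold change of H1047R insulin over H1047R vehicle for the IFIT members and for the list genes that averaged at least 1 CPM, with 1 point per gene, filled where the FDR was below 0.001. All points of the other interferon-stimulated genes are filled and lie right of 0, with IFIT5 at 0.77 and IFIT3 at 2.49 for comparison.

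The same lists were followed in the remaining comparisons. In control insulin against control vehicle, 0 members of any of these 4 lists were called by edgeR. With 1.63% of all genes tested called in either direction, a count of 0 cannot be set apart from that share. The median of the other interferon-stimulated genes was -0.15. RSAD2 was at 0.404, 0.550 and 0.303 CPM in control insulin and 0.609, 0.750 and 0.934 CPM in control vehicle. DESeq2 also called 0, and at an unadjusted p under 0.05 by edgeR were 1 of the other interferon-stimulated genes, 4 of the sensors and factors, 3 of the ligands, receptors and signaling genes and 2 of the partners. The other interferon-stimulated genes called lower in control insulin were 4 with no filter on low counts, 2 with only the 2 groups compared and 1 without H1047R vehicle replicate 1. In H1047R vehicle against control vehicle, 15 of 30 other interferon-stimulated genes were higher (median 1.16) and RIGI was the 1 sensor called (0.91 ± 0.138). Of all genes tested, 0.141% were called higher there. The count of sensors and factors was 0 with DESeq2, with a filter of 1 CPM in 3 libraries and without control vehicle replicate 1 or 3, and 3 with no filter or without H1047R vehicle replicate 2. The count of 15 other interferon-stimulated genes was 2 with DESeq2, 2 with a filter of 1 CPM in 3 libraries, 26 with no filter, 9 without H1047R vehicle replicate 1, and 6, 7 and 5 without control vehicle replicates 1, 2 and 3. In H1047R insulin against control insulin, 30 of 30 other interferon-stimulated genes (median 3.40) and 10 of 18 sensors and factors were higher, against 11.4% of all genes. The interaction was positive and called for 28 of 30 and 8 of 18, against 4.58% of all genes.

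The genes beside the cluster that averaged at least 1 CPM changed by less than any member in H1047R insulin against H1047R vehicle. Of 16 other protein-coding genes within 1 Mb of the members on chromosome 10, 11 were tested. Of these, 2 were higher and 0 lower in H1047R insulin than in H1047R vehicle. Such counts are too small to be set apart from the 9.85% higher and 9.8% lower among all genes tested. FAS, the death receptor, changed by 0.59 ± 0.0766 and STAMBPL1, a deubiquitinase, by 0.41 ± 0.0597, and their starts lie at -439 and -513 kb from that of IFIT1. Starts here are the 5′ edges of annotated gene spans, and which start these cells used was not tested. The annotated span of LIPA, the lysosomal acid lipase, lies on the opposite strand across IFIT2, IFIT3 and IFIT1. The 5′ edge of that span is 11 bases from that of IFIT5, and need not be the start of the main LIPA transcript. LIPA had 156, 165 and 162 CPM in H1047R insulin and 169.6, 163 and 174 CPM in H1047R vehicle (log2 fold change -0.07 ± 0.0396, adjusted p = 0.184). Insulin raised LIPA in control cells, to 203, 203 and 201 CPM in control insulin against 171, 171 and 163 CPM in control vehicle (0.27 ± 0.0396, adjusted p = 8.60e-06), and its interaction was -0.34 ± 0.0560 (adjusted p = 1.28e-05), opposite in sign to those of the members. IFIT1B was scarcely detected, with 8, 11 and 15 reads in H1047R insulin and 0 to 4 in each of the other 9 libraries, and IFIT1 shares stretches of up to 72 identical bases with it. CH25H had 0.0653, 0.193 and 0.130 CPM in H1047R insulin and 0.0421, 0 and 0 CPM in H1047R vehicle. IFIT1B and CH25H both lay under 1 CPM and were highest in H1047R insulin, so the statement on size does not cover them.

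**Figure D5:**
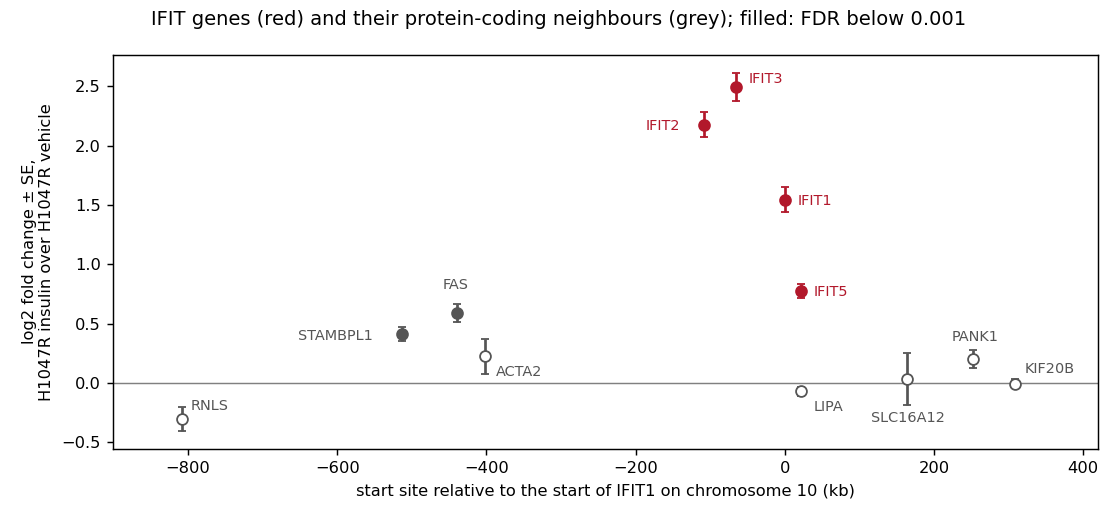
Log2 fold change ± SE of H1047R insulin over H1047R vehicle against the distance of each start site (5′ edge of the annotated gene span) from that of IFIT1 (kb), for the IFIT genes (red) and the neighbouring protein-coding genes averaging at least 1 CPM (grey), filled where the FDR was below 0.001. The 4 IFIT genes lie between 0.77 and 2.49, and the 8 neighbours between -0.30 and 0.59.

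Across the 12 libraries, the genes whose log2 CPM was most like that of each member were ranked by Pearson correlation among 13301 other genes averaging at least 1 CPM. These values describe 4 groups of libraries that share depth and treatment, and carry no test. IFIT2 and IFIT3 were most like each other (r = 0.998). IFIT2 was followed by DDX60, IGFBP6, RIGI and IRF1 and IFIT3 by RIGI, IRF1, APOL1 and DDX60 (r = 0.995 to 0.998). Among the genes most like IFIT1 were SAMD9, SAMD9L, DNTTIP1 and IFIH1 (r = 0.994 to 0.996). IFIT5 was most like PELO, DNTTIP1, IPO13, MFSD12 and AKAP8L (r = 0.990 to 0.996), of which none was on the interferon lists, and its correlation was 0.984 with IFIT1 and 0.950 with IFIT2, at ranks 20 and 494.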

How the data were processed

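The authors used cutadapt, Trim Galore and FastQC for trimming and quality checks, aligned reads to hg38 with STAR, and deposited STAR's raw read counts per gene without normalization. The release named in the methods is a mouse one, and for tool versions and the human release, which were not given in the sources used here, none was assumed. Reads placed at several sites are not counted. Reverse-strand counts were used, which held 93.5 to 93.7% of stranded counts. Rows that name no gene stayed out of library sizes: unmapped (3.12 to 4.09% of reads), multiply placed (8.48 to 15.4%), without feature (3.91 to 4.55%) and ambiguous (3.31 to 3.61%). Coordinates and transcript lengths came from GENCODE release 44, which may not be the release counted, and promoter sequences from RefSeq (GRCh38.p14).

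The 22756 genes with a mean of at least 1 count per library entered edgeR 4.0.16 (R 4.3.3), by glmQLFit and glmQLFTest after TMM scaling, in a single fit of the 12 libraries (a coefficient for each group, 8 residual degrees of freedom) without a replicate block. A gene was called where the Benjamini-Hochberg FDR was below 0.001 over all genes tested, as adjusted p. SE is the absolute log2 fold change over the square root of F. The scripts were tested on simulated counts of a fixed spread, with changes planted in H1047R insulin only. Against H1047R vehicle, 82% of 2-fold and 66% of 0.5-fold changes were called, but 10% of 1.5-fold and 8% of 0.67-fold changes. For the interaction, 18% of 2-fold and 20% of 0.5-fold changes were called. A gene that did not pass may thus have changed by a small factor. Replicates differed by more than counting noise (chi-square per degree of freedom 2.70 to 5.90). The text names the members, PIK3CA, for each list the 4 or fewer called genes that changed most in H1047R insulin against H1047R vehicle among those averaging at least 1 CPM, members called in the opposite direction, the 5 genes most like each member (log2 CPM, prior count 2) and the neighbours within 1 Mb, and any other gene named was chosen after its values were seen. The members and lists were chosen with earlier results of these data known. The IFIT5 ratio used counts plus 0.5, and as its planned exact permutation test cannot go below p = 0.1 with 3 against 3 libraries, the ratio is given as a description. Alternatives were DESeq2 1.42.0, other scalings, filters, strands and thresholds, the compared groups alone, a replicate block and leaving out each library. Some results that this rule takes in are not reported here, and RSAD2 knockdown and protein blots were not analysed here.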

Additional observations from a re-analysis of the deposited data

Results flagged for a closer look

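The effect of insulin on each IFIT gene differed between H1047R cells and control cells by the test of the difference itself (edgeR interaction). The insulin effect in H1047R cells minus that in control cells was 2.40 ± 0.161 on the log2 scale for IFIT2, 2.73 ± 0.181 for IFIT3, 1.42 ± 0.150 for IFIT1 and 0.74 ± 0.0822 for IFIT5, with adjusted p-values from 3.90e-15 to 3.69e-09. All 4 kept these calls under each of 20 alternatives. Without H1047R vehicle replicate 1 the differences were 2.79, 3.18, 1.74 and 0.87. PIK3CA level differed between the same groups (interaction 1.72), and its part in these differences was not tested.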

How the results depend on the processing

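All 4 members remained called for insulin in H1047R cells and for H1047R in insulin under each of 21 alternatives, and no IFIT result reversed beyond IFIT5 values near 0 (H1047R in vehicle -0.07 to 0.09, insulin in control cells -0.01 to 0.07) that passed no test. For insulin in control cells, 0 members were called except 1 (IFIT3) with no filter on low counts. For H1047R in vehicle, the count of 2 was 0 with DESeq2 and 0 where genes had to reach 1 CPM in 3 libraries, and from 1 to 3 on leaving out 1 library; the cause was not tested. The IFIT5 ratio kept its direction.

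Replicate numbers did not pair the libraries: over 18 same-numbered pairs the correlation of deviations was -0.06 to 0.09, with 0 over 0.1. With the number as a replicate block, the IFIT3 log2 fold change for insulin in H1047R cells was 2.53 and no member's call changed.

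Over all genes, the count called for H1047R in vehicle (36) was 22 with DESeq2, 152 with no filter, 6 with the 1 CPM filter, 14 to 100 on leaving out 1 library, and 53 with the replicate block. At an FDR below 0.05 the counts were 7812 for insulin in H1047R cells, 1206 for insulin in control cells, 276 for H1047R in vehicle, 8774 for H1047R in insulin and 4848 for the interaction. Insulin in control cells (372) had 233 genes without control insulin replicate 2. IFNB1 rested on 16 reads in all over the H1047R insulin libraries, so that counting error limits it.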
